A study of Mus musculus with 62 samples.

Results

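The distribution of B2 RNA counts along the B2 sequence was compared between amyloid-treated HT-22 cells that had received an antisense oligonucleotide against Hsf1 and those that had received a scramble oligonucleotide. The libraries were chosen by their titles. They were the short-RNA libraries of HT-22 cells given amyloid beta 1-42 peptide (Aβ42), 3 labelled anti-Hsf1 and 4 scramble, which made 7 of the 31 short-RNA libraries and of the 62 libraries in the series. A library's file gives 119 counts, 1 per B2 position from 2 to 120. Every count was divided by the sum over all positions of its library, the B2 total, and the result is called a share and given in percent.

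The series pairs mouse hippocampus, which was not used here, with HT-22, a mouse hippocampal cell line. The cells, at passage 4, were exposed for 24 h to a locked nucleic acid (LNA) oligonucleotide, anti-Hsf1 at 150 nM or scramble at 50 uM by the labels, so the groups differ in the stated dose as well as in the target of the LNA. They were then given 30 uM of Aβ42 in DMSO, or of a control peptide with the amino acid order inverted (reverse peptide), and the 4 scramble and 3 anti-Hsf1 libraries of the reverse peptide serve as the comparison for the 7 Aβ42 libraries. All groups share the cell line, an LNA exposure and a peptide in DMSO, and no group without LNA or without peptide was used. The series calls the libraries of a group biological replicates and does not say whether cultures were grown on separate days, so p-values measure the spread between these libraries. The LNA acts on the cells of 1 line, and HT-22 lacked most of the neuronal markers examined. Across the 7 long-RNA libraries of the same 2 groups, Rbfox3 and Snap25 were listed at 0 TPM, a length-normalised expression unit. Map2 was listed at 0 except in scramble library 4 (0.0307 TPM), and Syp at 0 except in scramble libraries 1 and 4 (0.273 and 0.196 TPM). Tubb3 averaged 1.298 TPM under anti-Hsf1 and 4.20 TPM under scramble. Of 9 markers of astrocytes, microglia and oligodendrocytes, Slc1a3, also made by other cells, averaged 30.8 TPM under anti-Hsf1 and the other 8 averaged at most 0.678 TPM in either group. The mesenchymal genes Vim, Col1a1 and Col1a2 averaged 426, 518 and 992 TPM under anti-Hsf1.

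B2 elements are short interspersed repeats of rodent genomes that derive from a tRNA gene and are transcribed by RNA polymerase III. B2 RNA accumulates after heat shock and other stress, can bind RNA polymerase II and repress transcription, and is cut at internal sites, which releases that repression. The polycomb methyltransferase Ezh2 has been reported to speed the cutting. Hsf1 is the transcription factor that switches on heat shock genes. The reads counted here come from RNA enriched for short fragments, so a change in shares along B2 is a change in where the sequenced fragments lie. The sources used here do not say whether a count marks a fragment's end or a covered base.

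With anti-Hsf1 LNA the B2 profile held a larger share at its first positions and at positions 95 and 97, and a smaller share at positions 30 to 33, at position 48 and at positions 105 to 107. The 3 anti-Hsf1 libraries had 22.1 ± 1.72% (SD, n = 3) of their B2 counts at positions 2 to 10, against 15.9 ± 1.11% (SD, n = 4) with scramble. At positions 31 to 40 they had 10.8 ± 0.311% against 16.6 ± 1.23%. The shares of a library sum to 100 percent, so a higher share at one place comes with a lower share elsewhere.

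**Figure D1:**
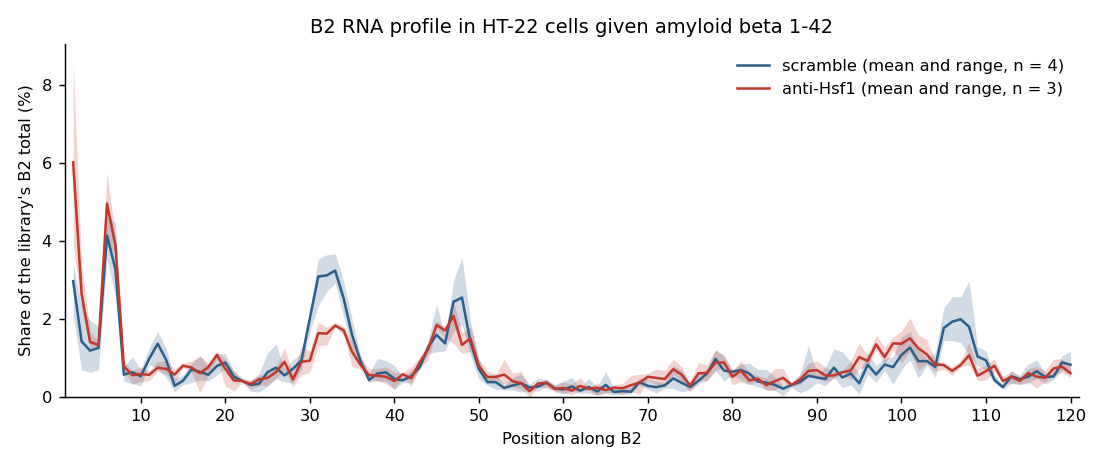
Mean share of the library's B2 total (percent) at each position along B2 for the 3 anti-Hsf1 and the 4 scramble libraries given Aβ42, with the range over libraries shaded. The scramble mean stands above the anti-Hsf1 range around positions 31 to 33 and 105 to 107, and the anti-Hsf1 mean is above the scramble range at position 2.

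The B2 totals of the groups did not overlap, but their difference did not pass the test. The total was 1961, 1835 and 2075 counts in anti-Hsf1 libraries 1 to 3 and 3992, 3820, 4175 and 2741 counts in scramble libraries 1 to 4. All anti-Hsf1 libraries were below all scramble libraries, and the mean was 1957 ± 120 (SD, n = 3) against 3682 ± 644 (SD, n = 4), a ratio of 0.532 with a 2-sided exact permutation p of 0.0571, where 3 against 4 libraries cannot go below 0.0286. The sequencing depth of the libraries is not in the files, so this difference in counts cannot be read as a difference in B2 RNA per cell, and in bulk samples fewer cells and less RNA per cell cannot be told apart. With the reverse peptide, libraries labelled anti-Hsf1 had 2209, 2150 and 2799 counts and scramble libraries 2464, 1550, 1873 and 4246, and the ranges overlapped.

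Raw counts therefore give another view of the same positions. At positions 2 to 10 the anti-Hsf1 libraries had 454, 424 and 418 counts and the scramble libraries 700, 607, 631 and 418. At positions 31 to 40 the counts were 208, 204 and 219 against 592, 643, 740 and 462. In the first window scramble library 4 had as few counts as the anti-Hsf1 libraries, and in the second the highest anti-Hsf1 count, 219, lay far below the lowest scramble count, 462. The higher share summed over positions 2 to 10 thus came with a smaller total and not with a higher raw count. Sequencing depth is not in the files, so raw counts cannot show whether fragments at these positions rose or fell.

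A single value per library gave the same split. The share of B2 counts at positions above 20, called the internal share here, was 69.6, 69.8 and 72.3% in anti-Hsf1 libraries 1 to 3, with 95% Wilson intervals that spanned from 67.5 to 74.2% over the 3 libraries. It was 76.3, 74.6, 78.0 and 77.2% in scramble libraries 1 to 4, with intervals from 73.1 to 79.2%. No anti-Hsf1 library reached the lowest scramble library, and the difference of means was -5.93 percentage points (70.6 ± 1.49, n = 3, against 76.5 ± 1.48, n = 4), with a 2-sided exact permutation p of 0.0286, the smallest this design can give. The intervals cover counting error only.

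**Figure D2:**
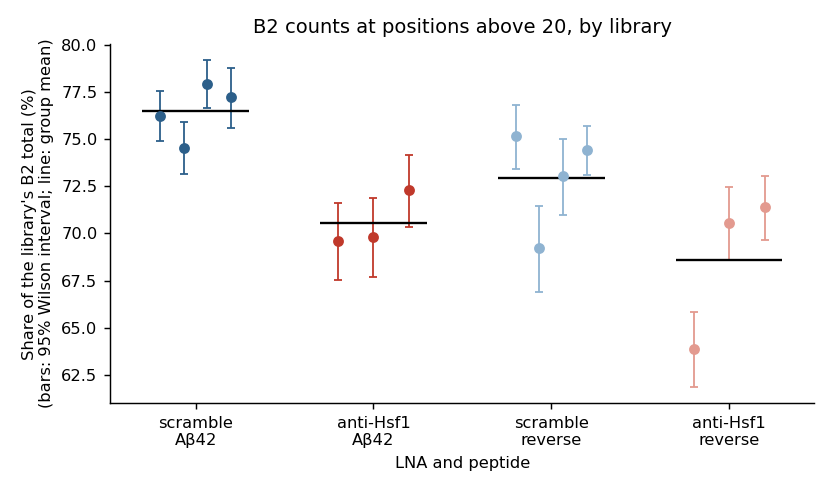
Share of B2 counts at positions above 20 (percent of the library's B2 total; the axis does not start at 0) for each HT-22 short-RNA library by LNA and peptide, with 95% Wilson intervals and the group mean as a line. With Aβ42 the 3 anti-Hsf1 libraries lie between 69.6 and 72.3% and the 4 scramble libraries between 74.6 and 78.0%; with the reverse peptide the groups overlap.

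The mean position of the counts did not separate the groups, while the mean position within the internal part did. Over all positions it was 51.0 ± 1.54 (n = 3) with anti-Hsf1 and 52.9 ± 1.60 (n = 4) with scramble, and the libraries overlapped (2-sided exact permutation p of 0.200). Counting only positions above 20, it was 69.2 ± 0.903 against 66.5 ± 1.06, higher with anti-Hsf1 by 2.70 positions without overlap (2-sided exact permutation p of 0.0286). The sign thus turns with the range of positions: the anti-Hsf1 profile held more at the first positions and, among the internal ones, lay further along. The effective number of positions, which counts how evenly a library spreads over B2 after thinning every library to 1550 counts, was 85.9 ± 4.63 against 81.6 ± 5.77 and overlapped (2-sided exact permutation p of 0.429).

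In windows of 10 positions, 4 of 12 windows passed an adjusted p of 0.05 in edgeR's quasi-likelihood test (33.3% of the windows tested), 2 higher and 2 lower with anti-Hsf1 (16.7% each). All 4 had groups that did not overlap. These windows hold 2 or more positions that were called singly, except that the calls at positions 30 and 48 lie in windows that were not called.

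**Figure D3:**
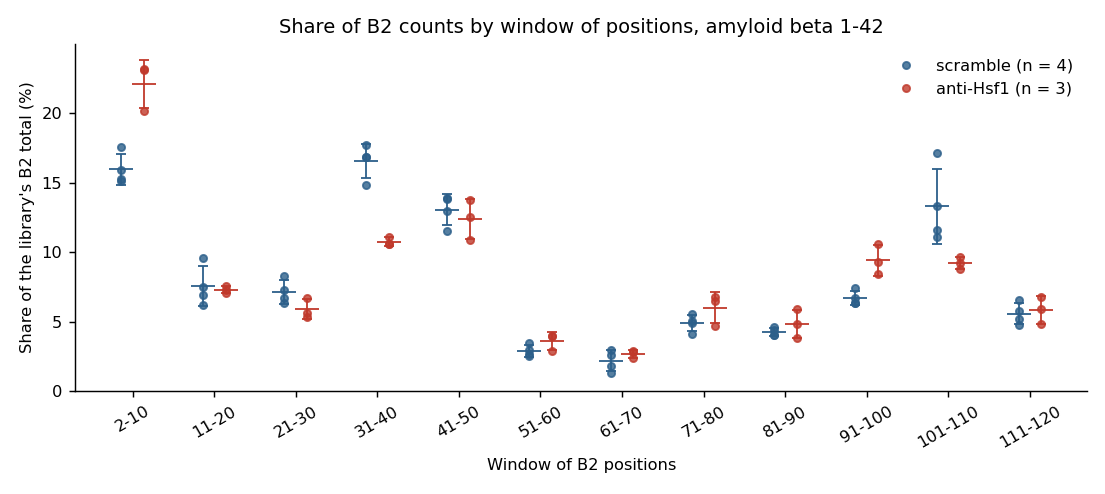
Share of the library's B2 total (percent) in each of 12 windows of B2 positions for the 3 anti-Hsf1 and 4 scramble libraries given Aβ42; points are libraries, short lines means and bars SD. The groups are apart at positions 2 to 10, 31 to 40, 91 to 100 and 101 to 110 and overlap in the other windows.

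The first window, positions 2 to 10, was 23.2, 23.1 and 20.1% in anti-Hsf1 libraries 1 to 3 and 17.5, 15.9, 15.1 and 15.2% in scramble libraries 1 to 4. Its log2 change was 0.47 (SE 0.11, edgeR adjusted p = 0.000569). The lowest anti-Hsf1 library, at 20.1%, stood above the highest scramble library, at 17.5%.

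Positions 31 to 40 took 10.6, 11.1 and 10.6% in anti-Hsf1 libraries and 14.8, 16.8, 17.7 and 16.9% in scramble libraries. The log2 change of -0.62 (SE 0.13, edgeR adjusted p = 0.00036) was the largest of the 12 windows in size. The anti-Hsf1 libraries differed among themselves by less than 1 percentage point here, the narrowest spread of that group relative to its level among the 4 called windows.

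Positions 91 to 100 took 10.6, 9.26 and 8.39% against 7.39, 6.73, 6.35 and 6.31%, a log2 change of 0.49 (SE 0.18, edgeR adjusted p = 0.0309). Although the libraries did not overlap, this window was called in 6 of 14 alternative analyses and had an adjusted p up to 0.155, reached without anti-Hsf1 library 1. The other 3 called windows were called in more of their alternatives.

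Positions 101 to 110 took 8.77, 9.65 and 9.20% against 11.6, 11.1, 17.1 and 13.3%, a log2 change of -0.53 (SE 0.16, edgeR adjusted p = 0.00825). Scramble library 3, at 17.1%, was the highest of the 7, and without it the change was -0.38 with an edgeR adjusted p of 0.068. Without anti-Hsf1 library 1 the edgeR adjusted p was 0.062.

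The exact permutation test of each window's mean share gave p = 0.0286 for the first 3 of these windows and 0.0571 for positions 101 to 110, which became 0.114 and 0.171 after adjustment over 12 windows, so none passed by that test. A single window cannot go below the unadjusted 0.0286 with 35 arrangements. In the other 8 windows the change ran from -0.28 at positions 21 to 30 to 0.32 at positions 51 to 60, and none had an edgeR adjusted p under 0.223. From position 51 to 90 all 4 windows had a positive log2 change (0.32, 0.30, 0.29 and 0.19), none of them past the test.

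Position by position, 94 of the 119 positions had a mean count of at least 10 over the 14 HT-22 short-RNA libraries and were tested. Of these, 12 were called at an adjusted p below 0.05 (12.8%), 4 higher with anti-Hsf1 (4.26%) and 8 lower (8.51%), and 20 had an unadjusted p below 0.05. The count was 5 (1 higher, 4 lower) without anti-Hsf1 library 1 and 7 (4 higher, 3 lower) without anti-Hsf1 library 3, all among the 12. The 25 untested positions, 24 of them between 53 and 87 and the other at 23, held 7.94% of the anti-Hsf1 counts and 6.20% of the scramble counts. Groups did not overlap at 21 of the 119 positions (17.6%), at 10 with anti-Hsf1 higher (8.4%) and at 11 with it lower (9.24%), and 11 of the 12 called positions were among them. Shares of adjacent positions were alike within a library (correlation across positions of 0.588 to 0.727 in the 7 libraries). This correlation describes the profile along B2, and whether libraries deviate together at adjacent positions was not tested. Calls next to each other are therefore not counted as separate observations.

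**Figure D4:**
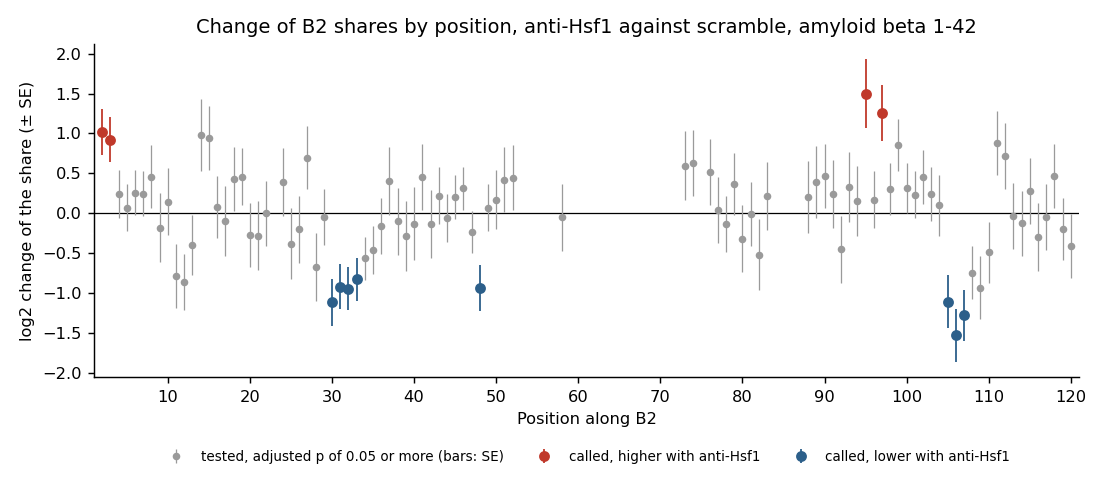
Log2 change of the B2 share (anti-Hsf1 against scramble, Aβ42; bars: SE) at each of the 94 tested positions, with the 12 called ones in colour. The called positions lie in 5 places: 2 and 3, 30 to 33, 48, 95 and 97, and 105 to 107.

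At the first position counted, position 2, anti-Hsf1 libraries 1 to 3 had 5.51, 8.61 and 3.90% of their B2 counts and scramble libraries 1 to 4 had 2.08, 3.40, 3.23 and 3.14%. Its log2 change was 1.02 (SE 0.29, edgeR adjusted p = 0.0106). The anti-Hsf1 libraries were all above the scramble libraries but spread widely, with the highest above the lowest by more than 4 percentage points. Without anti-Hsf1 library 2, the highest of the 7, the change was 0.67 and no longer called (edgeR adjusted p = 0.133). Position 2 was the position with the highest share in anti-Hsf1 libraries 1 and 2, and position 6 or 7 in every scramble library and in anti-Hsf1 library 3.

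Position 3 followed with 3.37, 2.23 and 2.31% against 1.10, 1.54, 0.695 and 2.33%, a log2 change of 0.92 (SE 0.28, edgeR adjusted p = 0.0145). Scramble library 4 lay among the anti-Hsf1 libraries, and this was the only called position with overlapping groups. The call was lost without scramble library 3 or anti-Hsf1 library 1 (edgeR adjusted p = 0.144 and 0.267) and when only the 7 Aβ42 libraries were fitted (edgeR adjusted p = 0.072).

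Positions 6 and 7 carry the peak of the profile in most libraries and did not pass the test. Position 6 had 5.25, 3.87 and 5.73% with anti-Hsf1 and 4.43, 3.95, 4.62 and 3.54% with scramble (log2 change 0.26, SE 0.28, edgeR adjusted p = 0.694), and the groups overlapped. Position 7 had 4.13, 3.81 and 3.71% against 4.46, 2.57, 3.14 and 2.92% (log2 change 0.25, SE 0.28, edgeR adjusted p = 0.703), again with overlap. The higher share of the first window came with calls at its first 2 positions and not at its peak.

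The block from position 30 to 33 was lower at each of its 4 positions. Position 30 had 1.17, 0.981 and 0.627% with anti-Hsf1 and 2.20, 1.65, 2.13 and 2.04% with scramble (log2 change -1.12, SE 0.30, edgeR adjusted p = 0.00903). Position 31 had 1.68, 1.91 and 1.301% against 2.33, 3.53, 3.40 and 3.07% (-0.92, SE 0.28, edgeR adjusted p = 0.0131).

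Positions 32 and 33 are, with 31, among the 6 positions of highest mean share in the 7 libraries. Position 32 had 1.33, 1.74 and 1.78% with anti-Hsf1 and 2.73, 3.64, 3.38 and 2.70% with scramble (log2 change -0.94, SE 0.27, edgeR adjusted p = 0.0106). Position 33 had 1.78, 1.91 and 1.78% against 3.06, 3.30, 3.67 and 2.92% (-0.83, SE 0.27, edgeR adjusted p = 0.0217). In all 4 positions every anti-Hsf1 library was below every scramble library. Each of the 4 lost its call in at least 1 fit without a single library, position 33 in 4 of them (edgeR adjusted p of 0.0709 to 0.14), with the sign kept throughout.

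Position 48, in the second internal peak of the profile, had 1.63, 1.25 and 1.11% with anti-Hsf1 and 2.56, 1.86, 3.57 and 2.19% with scramble. Its log2 change was -0.94 (SE 0.28, edgeR adjusted p = 0.0131), with no overlap. The call was lost without scramble library 3, anti-Hsf1 library 2 or anti-Hsf1 library 3 (edgeR adjusted p of 0.087 to 0.11). The window around it, positions 41 to 50, was 12.4 ± 1.42% against 13.04 ± 1.11% and overlapped (log2 change -0.08, edgeR adjusted p = 0.658), so the lower share at 48 was not seen over the window.

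Further along, position 95 had 1.38, 0.708 and 0.964% with anti-Hsf1 and 0.276, 0.576, 0.455 and 0.073% with scramble. It had the largest positive change of the called positions, a log2 change of 1.5 (SE 0.43, edgeR adjusted p = 0.0106), on the lowest scramble level. Position 97 had 1.58, 1.20 and 1.25% against 0.376, 0.550, 0.551 and 0.803% (1.26, SE 0.35, edgeR adjusted p = 0.0106). Neither position had overlapping groups, and both lost the call without anti-Hsf1 library 1 (edgeR adjusted p = 0.151 and 0.0997).

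The first position outside the threshold was 99, in the same stretch. It had 1.38, 1.53 and 1.20% with anti-Hsf1 and 0.326, 0.812, 0.886 and 1.02% with scramble, with no overlap (log2 change 0.86, SE 0.33, edgeR adjusted p = 0.0738).

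The neighbouring positions 105 to 107 were each lower, 106 and 107 with the largest log2 decreases of the called positions. Position 105 had 0.867, 0.708 and 0.867% with anti-Hsf1 and 1.58, 1.44, 2.28 and 1.75% with scramble (log2 change -1.11, SE 0.33, edgeR adjusted p = 0.0131). Position 106 had 0.765, 0.545 and 0.675% against 1.65, 1.44, 2.56 and 2.04% (-1.53, SE 0.34, edgeR adjusted p = 0.00153), the smallest p of all positions. Position 107 had 0.765, 0.763 and 0.916% against 1.88, 1.39, 2.56 and 2.12% (-1.28, SE 0.32, edgeR adjusted p = 0.00566).

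No anti-Hsf1 library reached 1 percent at any of these 3 positions and no scramble library was below it. Scramble library 3 was again the highest at each. Position 105 lost its call without scramble library 3 or any 1 of the 3 anti-Hsf1 libraries (edgeR adjusted p of 0.0634 to 0.119), while 106 and 107 were called in all 16 alternatives run for them. The 4 positions before them, looked at because they share the window, were not called: the log2 changes at positions 101 to 104 were 0.23, 0.46, 0.24 and 0.10, with edgeR adjusted p-values of 0.612 or more.

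Because the larger share at the first positions lowers the other shares, the internal positions were also divided by their own total above position 20. The decreases and increases were kept: 11 positions were called, of which 10 were among the 12, with the 11th at position 99, while positions 2 and 3 lie outside the range. Position 106 then had a log2 change of -1.41 (edgeR adjusted p = 0.00839) and position 95 one of 1.61 (edgeR adjusted p = 0.00989). In windows, positions 31 to 40 remained lower at -0.51 and positions 91 to 100 higher at 0.61, with edgeR adjusted p-values of 0.00573 and 0.0131.

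Some libraries with a high B2 total also had high shares at positions 31 to 40 and 105 to 107. The 4 HT-22 libraries with the highest totals were scramble libraries 1, 2 and 3 of Aβ42 and scramble library 4 of the reverse peptide, with 3820 to 4246 counts. That reverse-peptide library had 16.1% at positions 31 to 40, where the other 3 of its group, with 1550 to 2464 counts, had 11.03 to 12.4%. At positions 105 to 107 it had 1.63, 1.70 and 2.03%, against at most 1.01, 1.10 and 1.28% in the other 3. At position 2 it had 6.05%, within the 5.87 to 6.41% of the other 3, where the scramble libraries of Aβ42 had at most 3.40%. Scramble library 4 of Aβ42 had 2741 counts, fewer than the 2799 of the reverse-peptide library 3 labelled anti-Hsf1, and had 16.9% at positions 31 to 40 where that library had 10.0%. The part of the B2 total in the shares was not tested.

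The reverse peptide gives the LNA comparison without amyloid. Of the 94 positions, edgeR called 0 (0%) and DESeq2 0, with 4 and 3 at an unadjusted p below 0.05, and the groups did not overlap at 5 of the 119 positions (4.2%). Of the 12 windows, edgeR called 1 (8.33%) and DESeq2 0, with 3 and 2 at an unadjusted p below 0.05. The called window was positions 31 to 40, at 9.64, 9.30 and 10.0% in libraries labelled anti-Hsf1 and 12.4, 11.03, 11.5 and 16.1% in scramble libraries (log2 change -0.41, SE 0.13, edgeR adjusted p = 0.0411). Every library labelled anti-Hsf1 was below every scramble library there, as with Aβ42, but without scramble library 4 no window of the reverse peptide was called (5 at an unadjusted p below 0.05).

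In the first window the reverse-peptide shares were 27.9, 21.5 and 22.1% with anti-Hsf1 and 17.5, 21.03, 21.04 and 19.0% with scramble, again without overlap (log2 change 0.28, SE 0.11, edgeR adjusted p = 0.0709). The direction in these 2 windows was thus the same for both peptides. At positions 91 to 100 it differed in sign, with a log2 change of -0.24 (SE 0.18, edgeR adjusted p = 0.570) for the reverse peptide, and at positions 101 to 110 the reverse-peptide change was -0.14 (SE 0.16, edgeR adjusted p = 0.570).

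**Figure D5:**
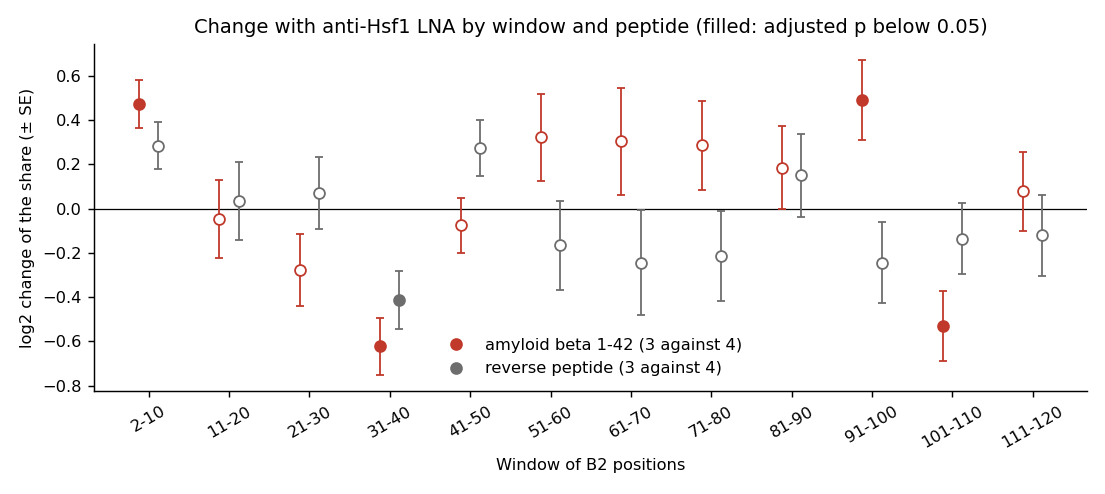
Log2 change of the B2 share (anti-Hsf1 against scramble; bars: SE) in each of 12 windows, for Aβ42 and for the reverse peptide, filled where the edgeR adjusted p is below 0.05. Both peptides show a higher first window and a lower share at positions 31 to 40, and at positions 91 to 100 the signs differ (0.49 and -0.24).

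Whether the LNA difference itself differs between peptides was tested as an interaction. With all 14 libraries edgeR called 0 of the 94 positions (0%) and 0 of the 12 windows (0%), with 9 positions and 1 window at an unadjusted p below 0.05. DESeq2 also called 0 of each, with 8 positions and 1 window at an unadjusted p below 0.05. The smallest p among positions was at 97 (interaction 1.56 on the log2 scale, edgeR adjusted p = 0.12), followed by 99 (1.36) and 30 (-1.17), and among windows at positions 91 to 100 (0.73, SE 0.26, edgeR adjusted p = 0.0862).

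This count changed with 1 library and with the model. A replicate block, although the numbers were not found to pair the libraries, gave 3 positions and 1 window. Scramble library 4 of the reverse peptide differed from the other 3 of its group by a chi-square per degree of freedom of 2.86 to 3.43. Those 3 differed from each other by 1.45 to 1.90. This value grows with the counts, and library 4 had 4246 counts against 1550 to 2464 in the other 3. The scramble libraries of Aβ42, with 2741 to 4175 counts, differed from each other by 1.94 to 4.40, so the value does not set library 4 apart. Without reverse-peptide scramble library 4, 4 positions (97, 99, 48 and 30) and 3 windows (positions 71 to 80, 91 to 100 and 101 to 110) had an interaction in edgeR, positive at 2 of the positions and 2 of the windows. At positions 91 to 100 the interaction was then 0.91 with an edgeR adjusted p of 0.00118. Leaving out any other single library gave 0 or 1 position and 0 or 1 window.

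For the internal share the difference between peptides did not pass. With the reverse peptide the internal share was 63.9, 70.6 and 71.4% in libraries labelled anti-Hsf1 and 75.2, 69.2, 73.0 and 74.4% in scramble libraries, a difference of -4.36 percentage points with overlapping groups (2-sided exact permutation p of 0.143). The difference of the 2 LNA differences was -1.58 percentage points (exact permutation of LNA labels within peptide, p = 0.704). The mean position above 20 differed between peptides before any adjustment for the number of measures. With the reverse peptide it was 67.9 ± 0.886 (n = 3) against 68.5 ± 1.22 (n = 4). The LNA difference of -0.69 there stood against 2.70 with Aβ42 (exact permutation of LNA labels within peptide, unadjusted p = 0.0229). Over all positions the mean position gave p = 0.616 by that permutation test. Leaving out single libraries was not tried for either interaction of the mean position.

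Whole profiles can be set side by side by the share of counts that would have to move to turn one library's profile into another's. Between anti-Hsf1 and scramble libraries with Aβ42 this distance was 19.2 to 27.6% (median 22.7% over 12 pairs). Within the anti-Hsf1 group it was 15.1 to 18.4% and within the scramble group 14.9 to 19.4%. Anti-Hsf1 libraries with Aβ42 lay at a median of 16.8% from the scramble libraries of the reverse peptide and of 16.5% from the libraries labelled anti-Hsf1 with the reverse peptide, with single pairs at 15.7 to 22.4% and 14.2 to 19.7%. Scramble library 4 of the reverse peptide was the exception in its group: it lay nearer the scramble libraries of Aβ42 (median 17.3%, from 13.6%) than the other 3 of its own group (median 20.3%). Counting noise adds to this distance, and more so in libraries with low totals. That library had 4246 counts, the scramble libraries of Aβ42 2741 to 4175, and the other 3 of its group 1550 to 2464. The part of the totals in these distances was not tested.

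At the called places given here, scramble with Aβ42 stood at one end of the group means, while the order of the other groups varied. At positions 31 to 40 the 3 other groups stood at 10.8% (anti-Hsf1, Aβ42), 9.66% (labelled anti-Hsf1, reverse) and 12.7% (scramble, reverse), below the 16.6% of scramble with Aβ42. At position 106 the means were 0.662, 0.749 and 1.04% against 1.92%, and at position 97 they were 1.34, 0.971 and 1.21% against 0.570%. At position 2 they were 6.01, 7.74 and 6.08% against 2.96%. At position 30 they were 0.927, 1.57 and 1.49% against 2.01%, with both reverse-peptide groups in between. The places were called because scramble and anti-Hsf1 differed with Aβ42 in these same libraries, and that choice favours a scramble mean at one end. The groups also share libraries across the comparisons, so the means are given only as a description.

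Long-RNA libraries of the same cells give the levels of the targeted gene and of genes that act on B2 RNA. Hsf1 (ENSMUSG00000022556, chromosome 15, 76477422 to 76501913) was at 27.7, 44.0 and 30.8 TPM in the anti-Hsf1 libraries and at 60.3, 70.7, 77.1 and 80.0 TPM in the scramble libraries given Aβ42. The groups did not overlap, and Hsf1 fell by 1.07 on the log2 scale (SE 0.19, limma adjusted p = 0.00113). With the reverse peptide Hsf1 did not differ past the test, at 59.9, 45.7 and 49.9 TPM against 54.0, 42.9, 70.6 and 58.9 TPM (log2 change -0.11, limma adjusted p = 0.997), which is why those libraries are called labelled anti-Hsf1.

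Many genes fell with Hsf1 on the TPM scale. Of 17291 genes tested, 8766 were called (50.7%), 8740 of them lower (50.5%) and 26 higher, and the median log2 change over all genes was -0.62. The share of TPM from protein-coding genes was 32.1, 42.1 and 30.1% in anti-Hsf1 libraries and 54.3, 51.7, 61.8 and 58.0% in scramble libraries, without overlap, and its part in the lower TPM of single genes was not tested. After each library was scaled by its median ratio to the mean of the libraries, the Hsf1 change was -0.37 (limma adjusted p = 0.52), and 4 of 17207 genes were called (0.0232%), 0 of them lower (0%), with 701 lower and 848 higher at an unadjusted p below 0.05 in limma among the genes tested on both scales.

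The RNA polymerase III list holds the enzyme that transcribes B2, its initiation factors, and Maf1, which is neither. Maf1 was not called (log2 change -0.33, limma adjusted p = 0.244). On the TPM scale 16 of its 21 members were called lower, beside 50.5% of all genes. The median log2 change of the list was -0.81 beside the -0.62 of all genes. Among the 11600 genes averaging 5 TPM or more, as every list member did, 8190 were called lower and the median was -0.69. The part of expression level in the list counts was not tested. Gtf3c5, a subunit of the promoter-binding factor TFIIIC, averaged 15.003 ± 2.84 TPM (n = 3) against 29.1 ± 2.44 TPM (n = 4), a log2 change of -0.92 (limma adjusted p = 0.000979). Polr3c, a polymerase subunit, averaged 22.4 ± 2.58 against 39.8 ± 3.68 TPM (-0.80, limma adjusted p = 0.000987). Scaled, the median of the list was -0.11, and limma called 0 of its 21 members, with 0 at an unadjusted p below 0.05.

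Of the genes of 5 proteins taken as partners of B2 RNA, 4 were called lower on the TPM scale, beside 50.5% of all genes. The median log2 change of the 5, -0.68, was near the -0.62 of all genes. It was also near the -0.69 of the 11600 genes averaging 5 TPM or more, of which 8190 were called lower. Ezh2 was at 56.8, 88.7 and 69.2 TPM with anti-Hsf1 and at 142, 133, 110 and 94.2 TPM with scramble, without overlap. Its log2 change in the TPM fit was -0.74 (limma adjusted p = 0.00335). Scaled, the Ezh2 change was -0.03 (limma adjusted p = 0.948). Eed, a polycomb subunit beside Ezh2, and Polr2a, the large subunit of RNA polymerase II, had log2 changes of -0.68 and -0.66 (limma adjusted p = 0.0023 and 0.00154), and scaled ones of 0.03 and 0.05 (limma adjusted p = 0.923 and 0.81).

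Among 12 heat shock genes, 9 of the 11 tested were called lower on the TPM scale, Hsf1 among them, beside 50.5% of all genes. The median log2 change of the 11 was -0.79, beside -0.62 for all genes. Of the 11600 genes averaging 5 TPM or more, as these 11 did, 8190 were called lower, with a median of -0.69. The small heat shock gene Hspb1 was below the level tested. Hspa8, the constitutive HSP70 chaperone, was at 473, 636 and 480 TPM with anti-Hsf1 and 944, 947, 1029 and 1024 TPM with scramble (log2 change -0.91, SE 0.14, limma adjusted p = 0.000963), and at -0.19 when scaled (limma adjusted p = 0.566). The stress-inducible Hspa1a and Hspa1b had log2 changes of -0.36 and -0.39 (limma adjusted p = 0.389 and 0.212) and, scaled, of 0.29 and 0.31 (limma adjusted p = 0.743 and 0.632), so the sign turned with the scaling. They were named after their values were seen. Scaled, the list had a median of -0.07 and limma called 0 of its 11 tested members. The 1 at an unadjusted p below 0.05 was Hsf1 itself (limma unadjusted p = 0.0235). The list shares Hsf1 with the check of the LNA target.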

How the data were processed

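Short-RNA and long-RNA libraries of HT-22 cells were used, grouped by their titles. The authors deposited, per the file headers, a count for each of 119 B2 positions per short-RNA library and TPM per gene for each long-RNA library. The submitters' processing notes name FastQC, cutadapt 1.18, BWA 0.7.17, HISAT2 2.1.0, bedtools 2.26.0, StringTie 1.3.4d, mm10 and GRCm38, without roles. The sources used here give neither the B2 reference sequence nor what a count marks. Reverse-peptide library 3 labelled anti-Hsf1 has a short-RNA title and a long-RNA description, and was taken as short RNA because its file lists B2 positions.

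Counts were tested with edgeR 4.0.16 (quasi-likelihood, library size = B2 total, no further scaling, 14 libraries in 4 groups, Benjamini-Hochberg over the 94 positions averaging 10 counts or more, or over 12 windows); DESeq2 1.42.0 was an alternative. For TPM, limma 3.58.1 in R 4.3.3 was fitted to log2(TPM + 1) for genes averaging 1 TPM or more, and fold changes are on that scale, which understates those of low genes; 11 duplicated gene rows were summed, and 53934 of 53975 identifiers were found in GENCODE M21, which gave the protein-coding class. Single values were compared with exact permutation tests in scipy 1.17.1 (Python 3.11.15), 2-sided, on the absolute difference of means. Other scalings, filters, windows and leaving out each library were tried.

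The named positions were all called ones (12), the 6 with the highest mean share and the 3 with the smallest interaction p; the named genes were Hsf1, Ezh2 and the 2 members of each list with the smallest p. Positions 101 to 104, Hspa1a and Hspa1b were added after their values were seen. The members, lists and rules were chosen with earlier results of these data known.

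Replicates of every group differed by more than sampling noise (chi-square per degree of freedom of 1.25 to 4.40), so none was counted as a duplicate. On simulated counts for the Aβ42 comparison (119 positions, 20 draws), 1.25, 34.5 and 91.9% of positions changed 1.5-, 2- and 3-fold were recovered. False calls were at 0, 0 and 1.20% of unchanged positions. The simulation drew positions independently with a common dispersion for all groups, so these rates need not hold for the real libraries.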

Additional observations from a re-analysis of the deposited data

Results flagged for a closer look

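Of 66 groups of 4 libraries checked, 3 had 1 library far from the other 3 of its group (gap to the nearest library, divided by the range, above Dixon's 95% critical value), and chance gives about 1 in 20. All 3 were in the scramble group of the reverse peptide. At positions 71 to 80, library 4 had 4.00% of its B2 counts and the others 6.82 to 7.37%. At positions 81 to 90, library 1 had 6.29% and the others 4.19 to 4.48%. At position 99, library 4 had 0.777% and the others 1.87 to 2.00%. None of the 4 scramble libraries given Aβ42 was set apart in this way in the values checked.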

How the results depend on the processing

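The calls at positions 106 and 107 and in the windows of positions 2 to 10 and 31 to 40 were made under every alternative run for them. The count of called positions was 12 in the reported analysis and 5 to 15 when 1 library was left out (5 without anti-Hsf1 library 1, 7 without library 3); that of windows was 4 and 2 to 4 (2 without scramble library 3 or anti-Hsf1 library 1). With the replicate block the interaction was called at 3 positions (95, 97 and 99) and 1 window (positions 91 to 100), against 0 of each without it; leaving out 1 library gave 0 to 4 positions and 0 to 3 windows. The leave-out of reverse-peptide scramble library 4 for the Aβ42 counts was chosen after seeing the data and gave 13 positions and 4 windows.

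The internal share difference with the replicate block was -5.69 percentage points (exact permutation p = 0.25, the smallest 3 pairs allow), and leaving out 1 library gave -6.79 to -5.45, with exact p-values of 0.0667 or 0.1, the smallest those sizes allow. Counted above position 30, its interaction was 0.0092 percentage points, against -1.58 above 20. The mean position turned to 2.70 when only positions above 20 were counted. Uncalled windows changed sign when 1 library was left out, at positions 11 to 20 (-0.13 to 0.088; positive without scramble library 2), 41 to 50 (-0.16 to 0.0072; positive without anti-Hsf1 library 2) and 111 to 120 (-0.048 to 0.20; negative without anti-Hsf1 library 3), and at 41 to 50 over positions above 20 alone (0.041). Median-of-ratios scaling of the long RNA called 4 genes in place of 8766 and moved Hsf1 to -0.37. The cause of these changes was not tested. Of the alternatives for single positions and windows, 417 kept direction and side of the threshold, 31 lost the call, 11 gained it and 4 changed sign.

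Replicate numbers were not found to pair the libraries: same-numbered Aβ42 libraries correlated in their deviations by 0.02 to 0.18. Over the 18 same-numbered pairs of all 4 groups the correlations ran from -0.30 to 0.31. Differently numbered libraries were not correlated for comparison. The block ended the call at positions 91 to 100 (edgeR adjusted p = 0.0775) and, beside the interaction counts above, moved no count of calls by over 1.5 times. B2 totals of 1550 to 4246 limit single positions: changes of 1.5-fold were recovered at 1.25% of simulated positions.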
